A study of Mus musculus with 8 samples.

Results

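The FGF and HGF ligands and receptors described here are 9 genes, chosen by name as the rows Fgf1, Fgf2, Fgf7, Fgf10, Hgf, Fgfr1, Fgfr2, Fgfr3 and Met among the 55933 genes of the expression table. All 9 were found, and 7 of them had a mean of at least 0.5 FPKM and were tested. The libraries were made from RNA of mammary epithelial cells of C57BL/6 mice at pregnancy day 14.5, from 4 control mice, called WT in the sample labels, and 4 cKO mice, with 1 library per mouse. The cKO mice carry K14-rtTA, teto-Cre and Bmpr1a fl/fl, so that doxycycline in the drinking water switches on Cre behind a keratin 14 promoter and deletes the floxed BMP receptor gene Bmpr1a in myoepithelial cells. Littermates served as controls, and for the mice of the RNA-seq neither the transgenes of the controls nor whether they drank doxycycline is given in the sources used here. The cells were not sorted, so each library holds the whole preparation left after digestion of the gland and removal of fat and red blood cells.

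Fibroblast growth factors are secreted proteins that bind receptor tyrosine kinases together with heparan sulfate on the cell surface. FGF7 and FGF10 come mainly from connective tissue and act on the epithelial splice form of FGFR2, a receptor needed for the mammary placode and for the growth of ducts and alveoli. HGF, also a product of connective tissue, is secreted as an inactive chain, is cut by serine proteases, and then binds MET on epithelial cells, where it promotes branching. Since the Bmpr1a deletion is in the myoepithelial layer and the alveoli form from the luminal layer, the comparison of these genes asks whether RNA for signals that could pass between the layers, or for their receptors, differed between control and cKO glands.

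FPKM counts the fragments on a gene per kilobase of its length, scaled to library size, so levels can be compared between genes. Between 16123108 and 19896988 reads lay on genes in each library. The size implied by the FPKM ranged from 0.933 (cKO replicate 4) to 1.05 (control replicate 2) times the library's own read total. The values are thus not scaled to these read totals alone. Bmpr1a itself was measured at 10.6, 11.7, 8.74 and 9.52 FPKM in the control libraries and at 12.01, 12.03, 10.2 and 10.4 FPKM in the cKO libraries. It was therefore not lower in the libraries labelled cKO (10.1 ± 1.28 against 11.2 ± 1.01 FPKM, SD, n = 4 mice per group, exact two-sided permutation test, p = 0.257), and every direction given here rests on the labels. The deletion is directed to myoepithelial cells, whose share of the Bmpr1a RNA in these unsorted preparations was not measured. Expression was given as 1 value per gene, so reads on the floxed part of Bmpr1a were not separated from the rest. Libraries of replicates 1 and 2 deviated together, and so did those of replicates 3 and 4, with correlations over genes, between a control and a cKO library, of 0.0797 to 0.178 within and -0.21 to -0.072 between these sets. The labels name no batch, so these sets rest on the values themselves, and a fit with the sets as a block is not independent of them. For the FGF and HGF genes, differences within each set are given where they differ in sign.

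The receptors carry the largest difference, so the sequences before the annotated starts of those with a window in the RefSeq promoter table are shown first, from 250 bases before to 50 bases after the start on the coding strand (GRCm38.p6). Windows were examined for 7 of the 9 genes. None was examined for Fgf1 or Fgfr1, so the sequences before their starts are not described here. Capitals mark each match, on either strand, to GGCGCC, a GC-rich motif of the SMAD proteins that BMP receptors activate, or to CAGGTG, the E-box read by Snail family repressors such as Slug. These motifs and the palindromic SMAD motif GTCTAGAC were chosen after the expression values had been seen. The windows lie at chr7:130266759-130267058 on the minus strand for Fgfr2, at chr5:33721474-33721773 on the plus strand for Fgfr3 and at chr6:17463707-17464006 on the plus strand for Met.
Fgfr2: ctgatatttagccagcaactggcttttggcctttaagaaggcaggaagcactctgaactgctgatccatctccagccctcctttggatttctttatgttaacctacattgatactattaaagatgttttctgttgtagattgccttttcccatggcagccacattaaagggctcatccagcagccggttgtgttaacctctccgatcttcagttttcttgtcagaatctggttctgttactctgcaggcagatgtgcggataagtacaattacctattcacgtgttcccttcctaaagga
Fgfr3: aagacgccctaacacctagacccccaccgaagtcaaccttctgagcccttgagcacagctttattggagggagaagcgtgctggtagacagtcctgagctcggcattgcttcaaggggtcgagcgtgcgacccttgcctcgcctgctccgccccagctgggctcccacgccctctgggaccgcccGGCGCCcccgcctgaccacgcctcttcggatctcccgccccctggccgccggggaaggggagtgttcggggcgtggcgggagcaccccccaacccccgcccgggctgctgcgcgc
Met: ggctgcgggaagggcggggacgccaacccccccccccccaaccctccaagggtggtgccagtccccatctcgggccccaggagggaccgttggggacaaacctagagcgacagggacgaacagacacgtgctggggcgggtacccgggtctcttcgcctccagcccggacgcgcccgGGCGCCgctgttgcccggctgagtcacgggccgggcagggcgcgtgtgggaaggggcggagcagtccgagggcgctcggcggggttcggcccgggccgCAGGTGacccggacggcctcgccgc
The Fgfr2 window held none of the 3 motifs. The Fgfr3 window shown held GGCGCC at position -65 from the start. A second Fgfr3 window in the table, at chr5:33722056-33722355 on the plus strand and not shown, held it at positions -123 and 24. The Met window held GGCGCC at position -73 and CAGGTG at position 25, with no overlap between matches. GGCGCC was present in 11.9% of the 32851 promoter windows of the same length that were examined, CAGGTG in 20.2% and GTCTAGAC in 0.213%. Among the ligands, the Fgf2 window held GGCGCC at position -80, and the windows of Fgf7, Fgf10 and Hgf held none of the 3. No coding Fgfr2 transcript of GENCODE vM21 starts within 100 bases of the RefSeq start, and the Fgfr2 window lies inside the 1 transcript with a distant start and upstream of the starts of the others. A match is a run of letters and no evidence of binding.

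The levels of the 9 genes spanned a wide range, and the receptors Fgfr1 (mean over the 8 libraries 26.9 FPKM) and Met (26.7 FPKM) stood at the top. These means were close, and Fgfr1 was above Met in 5 of 8 libraries, 3 of 4 control and 2 of 4 cKO. Fgf1 (4.73 FPKM) and Fgfr2 (4.17 FPKM) followed. Their order differed between the groups, since Fgf1 was above Fgfr2 in 1 of 4 control libraries and in 4 of 4 cKO libraries. Fgfr3 (1.33 FPKM) was above Fgf2 (0.954 FPKM) in 8 of 8 libraries, although the ranges of these genes overlapped in the cKO group. Fgf2 and Hgf (0.876 FPKM) overlapped in both groups. Fgf7 (0.487 FPKM) and Fgf10 (0.0953 FPKM) had the lowest levels. Of the 15143 genes tested, 87.3% had a lower mean than Fgfr1, whereas 12.01% had a lower mean than Hgf. The mean of each of the 4 receptors was above the means of Fgf2, Hgf, Fgf7 and Fgf10.

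**Figure D1:**
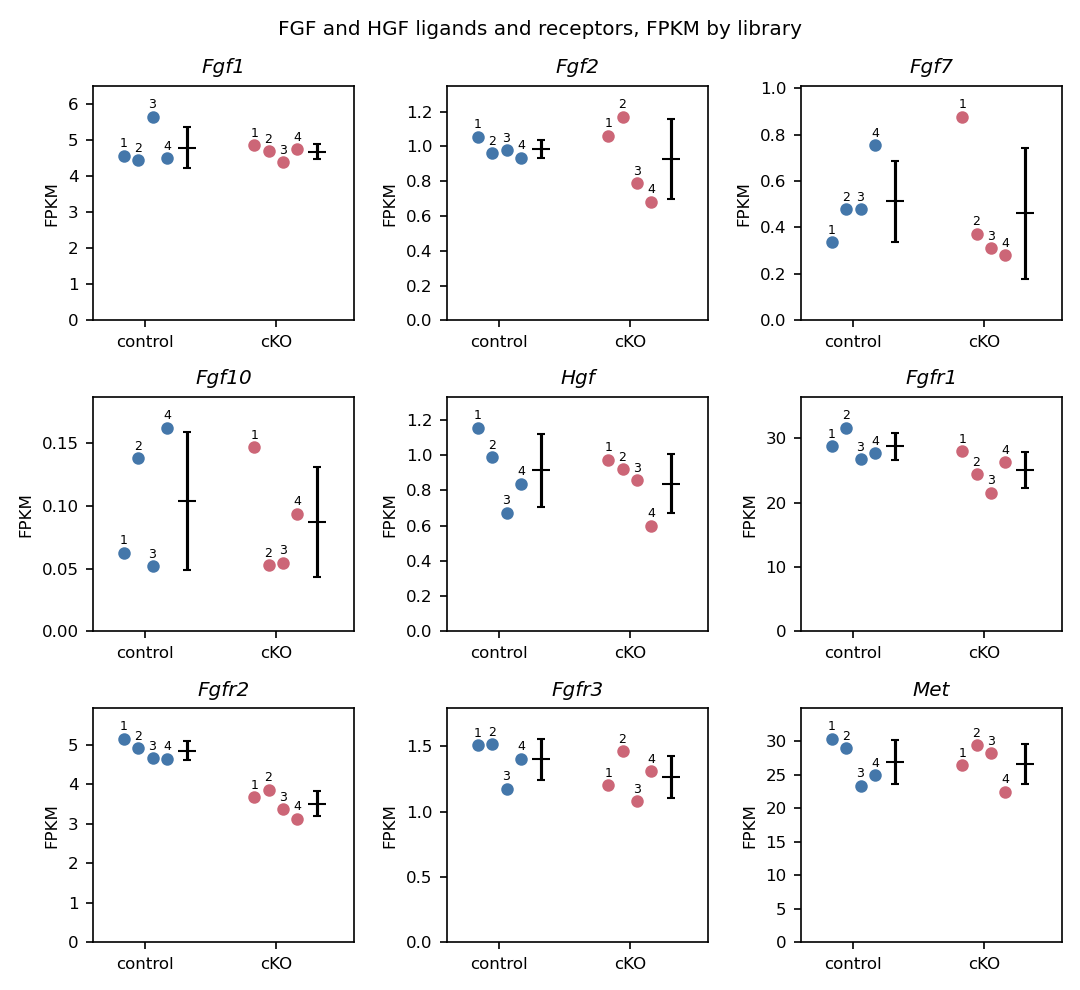
FPKM of the 9 genes in each library, with control in blue, cKO in red and the replicate number beside each point. Black bars give the mean and SD of 4 mice. Fgfr2 is the gene whose groups do not overlap, with control libraries from 4.64 to 5.15 FPKM and cKO libraries from 3.12 to 3.86 FPKM.

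Fgfr2, the receptor for FGF7 and FGF10 in epithelium, was the member with the largest difference. It was measured at 5.15, 4.91, 4.66 and 4.64 FPKM in the control libraries and at 3.68, 3.86, 3.37 and 3.12 FPKM in the cKO libraries. The highest cKO value was below the lowest control value, and 553 to 922 reads lay behind each one. The mean was 4.84 ± 0.239 FPKM in control mice and 3.51 ± 0.325 FPKM in cKO mice (SD, n = 4 each), a change of -27.6%. Over all genes tested, 4.6% had every cKO library below every control library. On log2(FPKM + 1), the limma difference between cKO and control was -0.38 (SE 0.07, 95% confidence interval -0.54 to -0.21), and its p of 0.000606 became an adjusted p of 0.0568, just short of the threshold of 0.05. The adjusted p was 0.0252 with limma-voom on the reads recovered from the FPKM, 0.0246 with the sets of replicates as a block and 0.0485 when only genes with a mean of at least 1 FPKM were tested, so the call depends on the test. These alternatives called 0.674%, 1.13% and 0.441% of all genes lower, in the same order. With limma-voom and the replicate number as a block, which called 1.82% of all genes lower, Fgfr2 was again called, and with limma and that block, which called 0.0925% lower, it was not. TPM scaling, which brings every library to the same FPKM sum, gave an adjusted p of 0.103. Without milk protein genes in that sum it was 0.1106. It was 0.1115 with no filter on low values, 0.06555 with no trend and 0.05269 with a pseudocount of 0.1. The adjusted p rose to between 0.0768 and 0.145 when any 1 library was left out. In all, 4 of 18 alternatives called Fgfr2 lower. Replicates 1 and 2 alone gave a difference of -0.34, and replicates 3 and 4 alone gave -0.41.

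The gene is annotated on the minus strand of chromosome 7 from 130162451 to 133123350 (GRCm38). Of its 17 coding transcripts, 1 starts at 133123350, and the others start between 130261857 and 130266263. Through that long transcript Fgfr2 shares 314 exon bases, or 3.04% of its counted length, with Ctbp2, a transcriptional corepressor gene on the same strand. Ctbp2 stood at 10.4 ± 0.579 FPKM in control mice and 10.4 ± 0.453 FPKM in cKO mice, with a log2 difference of -0.10 in replicates 1 and 2 alone and 0.10 in replicates 3 and 4 alone. The table holds 1 value per gene, so the epithelial and mesenchymal splice forms of Fgfr2 were not separated.

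Fgfr1, the receptor for most FGFs that is widely expressed in stroma and basal epithelium, had the highest mean of the 9 genes over all 8 libraries. In cKO mice alone the mean of Met was higher (26.6 against 25.1 FPKM). Fgfr1 was measured at 28.7, 31.7, 26.8 and 27.7 FPKM in the control libraries and at 28.0, 24.5, 21.5 and 26.3 FPKM in the cKO libraries. Of the cKO libraries, 3 were below the lowest control library, and cKO replicate 1 lay within the control range. The means were 28.7 ± 2.11 and 25.1 ± 2.77 FPKM, with a log2 difference of -0.19 (SE 0.09, 95% confidence interval -0.40 to 0.01, limma, adjusted p = 0.327). Fgfr1 lies on chromosome 8 from 25513654 to 25575718, and 3377 to 5415 reads were counted on it.

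Fgfr3, a further receptor of the family, was close to 1 FPKM in all libraries. The control libraries held 1.51, 1.52, 1.18 and 1.41 FPKM and the cKO libraries held 1.20, 1.47, 1.08 and 1.31 FPKM. The groups overlapped over most of their ranges (1.402 ± 0.159 against 1.26 ± 0.163 FPKM, log2 difference -0.09, SE 0.09, 95% confidence interval -0.28 to 0.11, limma, adjusted p = 0.677). It lies on chromosome 5 from 33721674 to 33737068 and had 123 to 189 reads per library. It shares 998 exon bases, or 13.9% of its counted length, with G630022F23Rik, on which 0 to 2 reads were counted.

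The balance of the 3 FGF receptors was examined within each library. Of their summed FPKM, Fgfr1 made up 82.1% ± 0.793 in control mice and 83.9% ± 1.70 in cKO mice. The share of Fgfr2 was 13.9% ± 0.734 in control mice and 11.8% ± 1.39 in cKO mice (SD, n = 4 each). The ratio of Fgfr1 to Fgfr2 was 5.58, 6.45, 5.75 and 5.97 in the control libraries and 7.61, 6.34, 6.39 and 8.43 in the cKO libraries. In cKO mice, 2 libraries thus lay inside the control range of this ratio. These shares are descriptions without a test.

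Met, the receptor for HGF, was as abundant as Fgfr1 and was measured at 30.4, 28.9, 23.3 and 24.9 FPKM in the control libraries and at 26.4, 29.4, 28.2 and 22.5 FPKM in the cKO libraries. Both groups spread over the same range. The means were 26.9 ± 3.31 and 26.6 ± 3.01 FPKM, and the log2 difference was -0.01 (SE 0.11, 95% confidence interval -0.26 to 0.23, limma, adjusted p = 0.967). Replicates 1 and 2 alone gave -0.09, and replicates 3 and 4 alone gave 0.06. The gene lies on chromosome 6 from 17463800 to 17573980, with 3001 to 4041 reads.

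**Figure D2:**
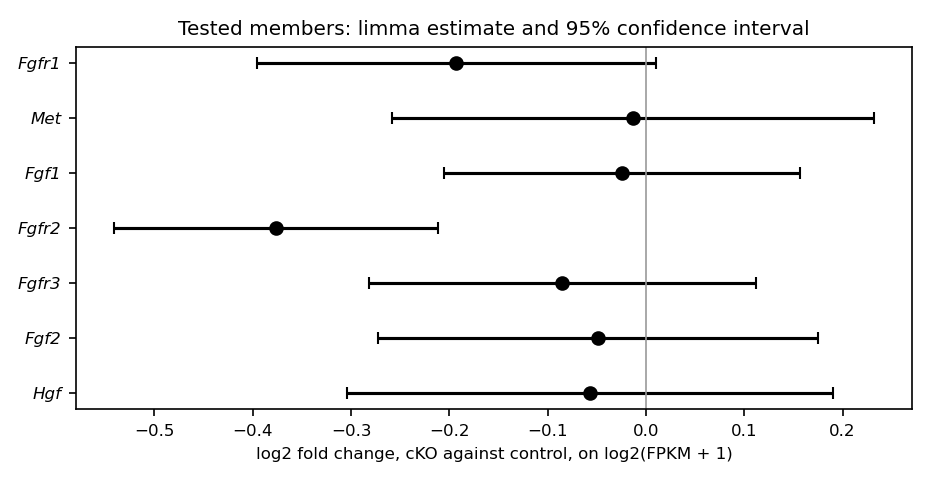
The limma log2 difference between cKO and control on log2(FPKM + 1) for the 7 genes tested, ordered by mean FPKM, with 95% confidence intervals as bars. The interval of Fgfr2 runs from -0.54 to -0.21 and lies below 0, and the intervals of the other genes include 0.

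Fgf1, a ligand for all FGF receptors, was the ligand with the highest level. Its values were 4.56, 4.45, 5.65 and 4.50 FPKM in the control libraries and 4.87, 4.69, 4.39 and 4.75 FPKM in the cKO libraries. Control replicate 3 stood above the other libraries, which were within a narrow range. The means were 4.79 ± 0.575 and 4.68 ± 0.202 FPKM, with a log2 difference of -0.02 (SE 0.08, 95% confidence interval -0.21 to 0.16, limma, adjusted p = 0.912). Without control replicate 3 the difference was 0.04. Replicates 1 and 2 alone gave 0.07, and replicates 3 and 4 alone gave -0.12. Fgf1 lies on chromosome 18 from 38838673 to 38929472 and had 381 to 517 reads.

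Fgf2, a growth factor of stroma and myoepithelium, is of interest here because the study measured it by qRT-PCR in sorted myoepithelial cells as a candidate signal to luminal cells. In the whole preparation the control libraries held 1.055, 0.962, 0.977 and 0.935 FPKM. The cKO libraries held 1.062, 1.17, 0.789 and 0.683 FPKM, so that 2 lay above all control libraries, replicate 1 only narrowly, and 2 below them. The means were 0.982 ± 0.0516 and 0.926 ± 0.228 FPKM (log2 difference -0.05, SE 0.10, 95% confidence interval -0.27 to 0.18, limma, adjusted p = 0.848). Replicates 1 and 2 alone gave a difference of 0.08, and replicates 3 and 4 alone gave -0.17. The gene lies on chromosome 3 from 37348346 to 37410108, with 85 to 139 reads per library, and shares 640 exon bases (9.44% of its counted length) with its antisense partner Nudt6, on which 21 to 38 reads were counted. Since counting by strand is not stated, reads of Fgf2 and Nudt6 in the shared stretch cannot be told apart.

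Hgf, which the study also measured in sorted myoepithelial cells, was low in the whole preparation. Its values were 1.16, 0.988, 0.673 and 0.838 FPKM in the control libraries and 0.973, 0.920, 0.859 and 0.599 FPKM in the cKO libraries. The groups overlapped, with control replicate 1 highest and cKO replicate 4 lowest. The means were 0.914 ± 0.207 and 0.838 ± 0.166 FPKM (log2 difference -0.06, SE 0.11, 95% confidence interval -0.30 to 0.19, limma, adjusted p = 0.839). Without control replicate 1 or without cKO replicate 4 the difference was within 0.01 of 0. Hgf lies on chromosome 5 from 16553495 to 16620152 and had 80 to 144 reads, and 6.74% of its counted length is shared with Gm43489, on which 2 to 7 reads were counted. The ratio of Hgf to Met was 0.0337 ± 0.00379 in control mice and 0.0313 ± 0.00418 in cKO mice. In every library of this preparation Met RNA was thus far more abundant than Hgf RNA, and protein was not measured here.

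Fgf7 and Fgf10, the stromal ligands of epithelial FGFR2, were too low for the test across genes. Fgf7 was measured at 0.338, 0.480, 0.478 and 0.755 FPKM in the control libraries and at 0.877, 0.373, 0.310 and 0.282 FPKM in the cKO libraries. The value of cKO replicate 1 was the highest of all 8, and the other cKO libraries were in the lower part of the range. The means were 0.512 ± 0.175 and 0.461 ± 0.280 FPKM on 16 to 55 reads (difference of log2(FPKM + 1) -0.06, exact two-sided permutation test, n = 4 per group, p = 0.6). Replicates 1 and 2 alone gave 0.19, and replicates 3 and 4 alone gave -0.31. Fgf7 lies on chromosome 2 from 126034658 to 126091185.

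Fgf10 was measured on few reads, 4 to 14 per library. Its values were 0.0627, 0.138, 0.0519 and 0.162 FPKM in the control libraries and 0.146, 0.0527, 0.0547 and 0.0936 FPKM in the cKO libraries. High and low libraries occurred in both groups (0.104 ± 0.0546 against 0.0869 ± 0.0439 FPKM, difference -0.02, exact two-sided permutation test, n = 4 per group, p = 0.686). With 4 mice against 4 this test cannot give a p below 0.0286. Fgf10 lies on chromosome 13 from 118669791 to 118792115.

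Of the 7 genes tested, 0 were called higher and 0 lower at an adjusted p under 0.05, against 0.588% and 0.304% of all genes tested (0.892% in either direction). At an unadjusted p under 0.05, 0 were higher and 1, Fgfr2, was lower, against 8.85% and 7.53% of all genes tested. The study's methods name a p under 0.05 and do not say whether it was adjusted. All 7 estimates were below 0, and 6 of them had intervals that include 0. Their median was -0.06, beside 0.0007 for all 15143 genes.

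The stromal ligands were set beside the RNA of other cells in the preparation. The 10 fibroblast markers, among them collagens, Pdgfra and Dcn, summed to 496, 856, 494 and 1029 FPKM in the control libraries and to 796, 476, 332 and 575 FPKM in the cKO libraries. The 3 libraries with the highest sums, control replicates 4 and 2 and cKO replicate 1, were also the 3 highest for Fgf7 and the 3 highest for Fgf10. Fgf10 was between 0.138 and 0.162 FPKM in those 3 libraries and between 0.0519 and 0.0936 FPKM in the other 5. Fgf7 was between 0.480 and 0.877 FPKM in those 3 and between 0.282 and 0.478 FPKM in the other 5. Hgf shared 2 of its 3 highest libraries with the fibroblast markers, and its highest library was control replicate 1. This comparison was made after the values were seen, and the part of fibroblast content in these levels was not tested. In bulk RNA, fewer cells of a type and less RNA per cell cannot be told apart.

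**Figure D3:**
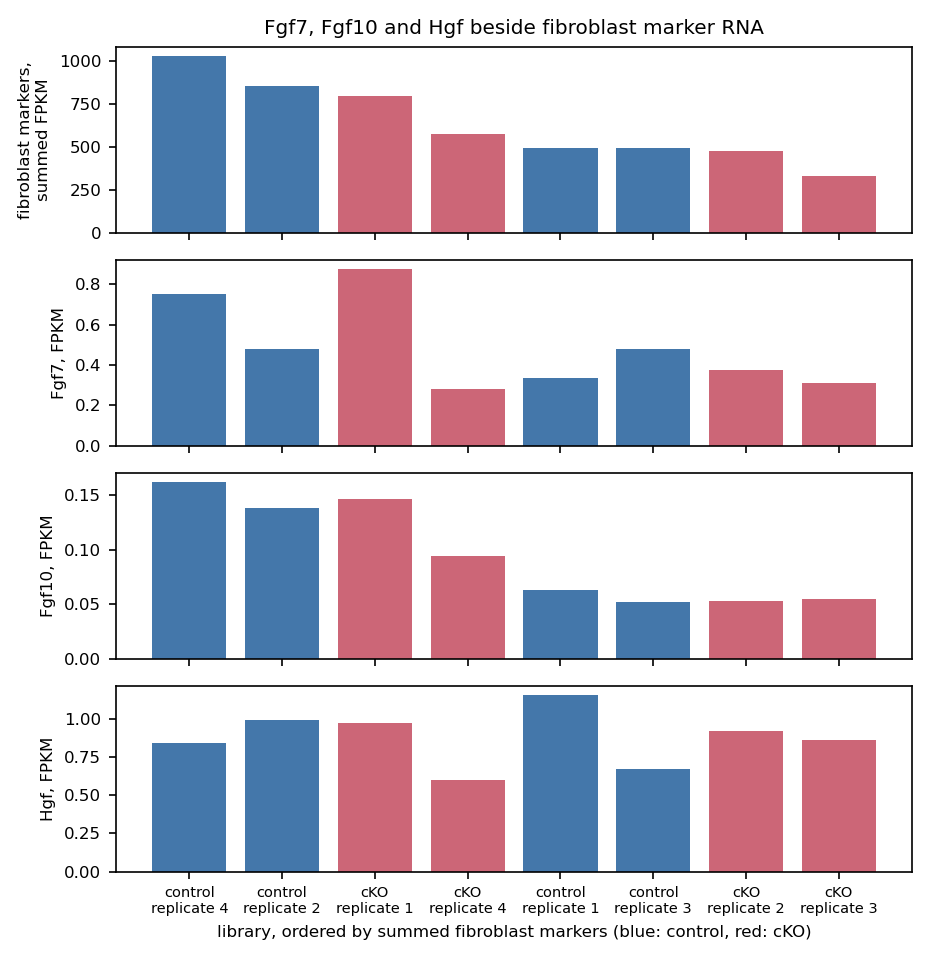
The 8 libraries in order of the summed FPKM of 10 fibroblast markers, with control in blue and cKO in red, and below it the FPKM of Fgf7, Fgf10 and Hgf in the same libraries. Fgf10 is between 0.138 and 0.162 FPKM in the first 3 libraries and at most 0.0936 FPKM in the other 5, and Hgf does not follow that order.

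Markers of the cell types that the preparation could hold were measured in the same libraries. Luminal markers, which include keratins 8 and 18 and Epcam, summed to 5609 to 7181 FPKM in control and 5488 to 7318 FPKM in cKO libraries, with 0 of 8 genes called at an adjusted p under 0.05. Myoepithelial markers summed to 1985 to 2704 FPKM in control and 1810 to 2506 FPKM in cKO libraries, with 0 of 10 called. In the latter list 6 estimates were above 0 and 4 below. Oxtr, the oxytocin receptor, was at 2.62 ± 0.329 FPKM in control and 5.65 ± 1.71 FPKM in cKO mice without overlap (limma, adjusted p = 0.0644), Trp63, which encodes the basal regulator p63, at 3.58 ± 0.576 and 2.45 ± 0.594 FPKM, also without overlap (adjusted p = 0.181), Krt14 at 753 ± 93.7 and 577 ± 88.9 FPKM (adjusted p = 0.209) and Acta2, smooth muscle actin, at 825 ± 164 and 953 ± 159.7 FPKM (adjusted p = 0.607). The sums of the milk protein genes did not overlap between the groups (4297 to 6507 against 10420 to 18920 FPKM), nor did 7 of the 8 genes singly, the exception being Lalba, and 4 of 8, Wap, Csn1s2a, Csn2 and Glycam1, were called higher. All 8 endothelial markers had estimates below 0, and their sums were 125.8 to 147 FPKM in control and 94.97 to 130.2 FPKM in cKO libraries, with 1 of 8, Vwf, called lower. All 7 macrophage and leukocyte markers tested also had estimates below 0 (845 to 985 against 782 to 931 FPKM summed, 0 called). Fibroblast markers had 10 of 10 estimates below 0 and pericyte markers 4 of 4 (41.5 to 56.9 against 32.2 to 49.2 FPKM summed), with 0 called in either list. Adipocyte markers summed to 86.2 to 134 FPKM in control and 110.3 to 148 FPKM in cKO libraries, with 1 of 5 tested, Cidec, called higher. Most of that sum was Fabp4 (96.7 ± 17.8 and 111.4 ± 13.2 FPKM), while Cfd was at 2.04 ± 0.613 and 13.2 ± 10.07 FPKM (limma, adjusted p = 0.128), Adipoq at 0.303 ± 0.201 and 1.25 ± 0.871 FPKM (adjusted p = 0.245) and Cidec at 0.386 ± 0.0668 and 1.56 ± 0.549 FPKM (adjusted p = 0.0378). Of the 5 adipocyte estimates, 4 were above 0 and 1, that of Lipe, was below (9.10 ± 2.05 and 9.01 ± 1.53 FPKM, limma, adjusted p = 0.992). No marker listed was at 0 in all libraries. The part of these marker levels in the Fgfr2 difference was not tested.

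The genes around the ligands and receptors were counted next, in 6 lists with 97 genes, of which 74 were tested. None was called at an adjusted p under 0.05 (0 higher and 0 lower). At an unadjusted p under 0.05, 8 of the 74 were higher and 15 lower, against 8.85% and 7.53% of all genes tested, and the median log2 difference of the 74 was -0.02. The groups did not overlap for 16 of the 74, against 10.7% of all genes tested. Limma with voom on recovered reads called 2 of them lower, Plau (adjusted p = 0.0305) and Spry2 (adjusted p = 0.0425). Besides the genes of smallest p in each list, others past the unadjusted threshold are named by list, and these were singled out after their values were seen.

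Among other FGF ligands, 4 of 18 were expressed highly enough to be tested, with 0 higher and 1 lower at an unadjusted p. That gene was Fgf17, a ligand best known from the embryonic brain, at 0.841 ± 0.141 FPKM in control and 0.420 ± 0.116 FPKM in cKO mice (log2 difference -0.37, SE 0.10, limma, adjusted p = 0.113, 9 to 29 reads). Fgf11, an intracellular FGF homologue, was at 0.985 ± 0.0458 and 1.16 ± 0.175 FPKM (adjusted p = 0.541). Among other receptors and co-receptors, 2 of 7 were lower at an unadjusted p, against 7.53% of all genes tested. Fgfr4, the receptor best known from liver, was at 1.17, 1.19, 1.42 and 1.28 FPKM in control and at 0.878, 0.702, 0.622 and 0.821 FPKM in cKO libraries. No cKO value reached the control range, as for Fgfr2 (log2 difference -0.37, SE 0.08, limma, adjusted p = 0.0798). Fgfrl1, a receptor without a kinase domain, also did not overlap between the groups (7.02 ± 0.852 and 5.52 ± 0.270 FPKM, log2 difference -0.30, SE 0.08, adjusted p = 0.139).

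The HGF activation list holds serine proteases that cut pro-HGF, their inhibitors and Plaur, the receptor of urokinase, and 3 of 8 tested were higher and 2 lower at an unadjusted p (8.85% and 7.53% of all genes). Plau, the urokinase, was at 92.2, 111.6, 129.2 and 119.6 FPKM in control and at 83.1, 75.0, 80.4 and 74.6 FPKM in cKO libraries. The groups did not overlap (113 ± 15.7 and 78.3 ± 4.15 FPKM, log2 difference -0.52, SE 0.10, limma, adjusted p = 0.061). Plat, the tissue plasminogen activator, was at 17.3 ± 3.28 and 11.2 ± 2.61 FPKM (log2 difference -0.59, SE 0.17, adjusted p = 0.139), with overlap between the groups through cKO replicate 1. The genes higher at an unadjusted p were St14, the protease matriptase (83.5 ± 3.55 and 95.97 ± 8.43 FPKM), Tmprss2, a related membrane protease (3.04 ± 0.214 and 4.06 ± 0.811 FPKM), and Spint1, the inhibitor HAI-1 (68.2 ± 5.03 and 79.2 ± 6.82 FPKM). Their adjusted p lay between 0.223 and 0.247. The proteases thus did not share a direction, and an inhibitor stood with those that were higher.

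Of the genes for heparan sulfate carriers and enzymes, which make the co-receptor of the FGFs, 2 of 18 were higher and 4 lower at an unadjusted p (8.85% and 7.53% of all genes). Ndst2, a sulfotransferase of the chain, was at 8.80 ± 0.680 FPKM in control and 7.03 ± 0.202 FPKM in cKO mice (log2 difference -0.28, SE 0.07, limma, adjusted p = 0.0834). Hs6st1, which adds 6-O sulfate, stood the other way, at 44.1 ± 1.64 and 53.8 ± 4.37 FPKM (log2 difference 0.28, SE 0.07, adjusted p = 0.111). Both genes separated the groups in all 8 libraries. The others past the unadjusted threshold were the glypican Gpc4, higher at 18.97 ± 0.975 and 21.9 ± 1.09 FPKM, and Sdc3, Gpc1 and Sulf1, lower. Sulf1, which removes 6-O sulfate outside the cell, was at 1.57 ± 0.283 FPKM in control and 1.08 ± 0.0153 FPKM in cKO mice (adjusted p = 0.158).

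Among the receptor adaptors and the MAPK core, 2 of 23 were higher and 2 lower at an unadjusted p, a share close to that of all genes tested, where 16.4% differed in either direction. Gab1, a docking protein downstream of MET, was at 21.3 ± 1.72 FPKM in control and 29.1 ± 4.79 FPKM in cKO mice (log2 difference 0.42, SE 0.12, limma, adjusted p = 0.131). The adaptor Grb2 (39.3 ± 2.98 and 35.2 ± 0.865 FPKM) and the phospholipase Plcg1 (5.04 ± 0.291 and 4.31 ± 0.396 FPKM) were the genes lower at an unadjusted p, with adjusted p of 0.292 and 0.251.

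Feedback inhibitors and transcriptional targets of the pathway had 1 of 14 higher and 4 lower at an unadjusted p (8.85% and 7.53% of all genes). Spry2, an inhibitor that FGF signalling itself turns on, was at 40.7, 40.2, 43.7 and 42.3 FPKM in control and at 32.3, 27.8, 35.8 and 30.5 FPKM in cKO libraries. The groups did not overlap (41.7 ± 1.59 and 31.6 ± 3.36 FPKM, log2 difference -0.40, SE 0.08, limma, adjusted p = 0.0624). Etv4, an ETS transcription factor downstream of FGF receptors, was at 3.22 ± 0.392 and 2.36 ± 0.392 FPKM (log2 difference -0.33, SE 0.11, adjusted p = 0.174) with a small overlap. Its relative Etv5 was at 6.22 ± 0.560 and 5.27 ± 0.416 FPKM (adjusted p = 0.251), and Dusp6, the ERK phosphatase that FGF signalling turns on, was at 59.4 ± 10.1 and 46.6 ± 3.45 FPKM (adjusted p = 0.206). Dusp4, a related phosphatase, stood the other way, at 17.8 ± 1.33 and 23.8 ± 5.36 FPKM (adjusted p = 0.221). In this list 7 estimates were above 0 and 7 below.

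**Figure D4:**
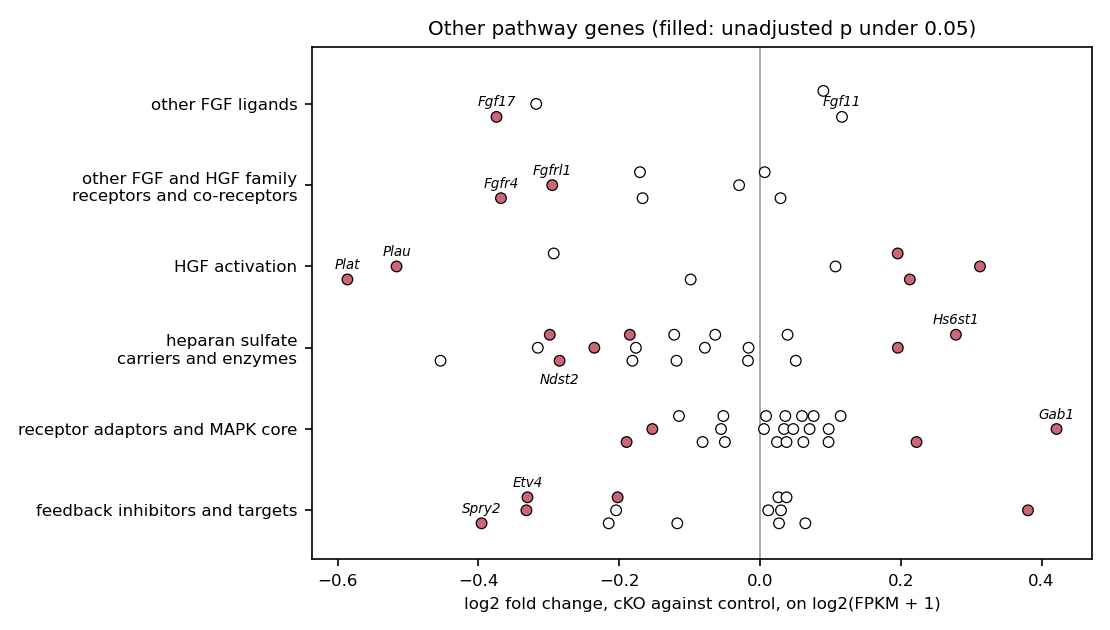
The limma log2 difference between cKO and control on log2(FPKM + 1) for the 74 tested genes of the 6 pathway lists, 1 point per gene. Filled points have an unadjusted p under 0.05 (8 higher, 15 lower), symbols mark genes of smallest p that the text names, and 0 points pass an adjusted p of 0.05.

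The genes with the most constant log2 distance to each member over the 8 libraries were taken from those with a mean of at least 5 FPKM, for the 5 members above 1 FPKM. The measure was the SD of the log2 distance, and it favours genes that vary little when the member itself varies little. For Fgfr2 these genes were Tnfrsf1b (SD 0.0495) and Man1a (0.0602), where Fgfr2 itself had an SD of 0.216. For Fgfr1 they were Epas1 (0.0625) and Parp10 (0.0657). For Met they were Api5 (0.0471) and Ankib1 (0.0586), for Fgf1 Sppl3 (0.0377) and Cd14 (0.0393), and for Fgfr3 Tent4a (0.0296) and Naa20 (0.0333). A gene with no variation at all would have an SD equal to that of the member, and 3.93% of the compared genes were below it for Fgf1 and 23.5% for Fgfr2.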

How the data were processed

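RNA-seq libraries of 8 mice were analysed from 1 table of the whole series. The authors mapped the reads with Hisat2 to GRCm38, calculated FPKM and used DESeq2; the submitters' processing notes also name StringTie 1.3.3b and featureCounts 1.5.0-p3. The deposited FPKM gave whole reads for 100% of values (tolerance 0.01 of a read). Gene coordinates match GENCODE vM21 for 99.68% of 55394 identifiers.

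FPKM are not counts, so log2(FPKM + 1) was tested with limma 3.58.1 in R 4.3.3 (trend, Benjamini-Hochberg) for 15143 genes with a mean of at least 0.5 FPKM. Fold changes on this scale understate those of low genes. Fgf7 and Fgf10 were compared by an exact permutation test. Alternatives were another pseudocount, TPM scaling with and without milk protein genes, other filters, no trend, replicate blocks, limma-voom on recovered reads and each library left out in turn.

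The members and lists were chosen with earlier results of these data known. Named were all members, the 2 genes with the smallest p in each pathway list, any past the adjusted threshold, marker genes, and the 2 genes most constant in distance to each member above 1 FPKM; 1 gene so chosen is not reported here. Promoter sequences are from RefSeq (GRCm38.p6). The procedure was tested on simulated data. Mice were separate animals, and their number limits the precision.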

Additional observations from a re-analysis of the deposited data

Results flagged for a closer look

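Of 86 groups of 4 libraries examined, 5 held a library far from the other 3 by Dixon's criterion at 95%, and chance flags about 1 in 20. Fgf1 in control replicate 3 was 5.65 FPKM, against 4.45 to 4.56 FPKM in the other control libraries. Fgf7 in cKO replicate 1 was 0.877 FPKM, against 0.282 to 0.373 FPKM in the other cKO libraries, on 55 reads. Epas1, the gene most constant in distance to Fgfr1, was 16.3 FPKM in control replicate 3 and 18.6 to 18.9 FPKM in the other control libraries. Ankib1, named beside Met, was 4.80 FPKM in cKO replicate 4 and 5.80 to 5.96 FPKM in the other cKO libraries. The summed adipocyte markers were 110.3 FPKM in cKO replicate 1, against 145.3 to 147.9 FPKM in the other cKO libraries.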

How the results depend on the processing

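Fgfr1, Fgfr2 and Fgfr3 stayed lower in cKO under all 18 alternatives, and with 1 library left out their differences ranged from -0.246 to -0.125, -0.413 to -0.334 and -0.132 to -0.0458 (nearest to 0 without cKO replicate 3 for Fgfr1 and Fgfr3). The Fgfr2 difference was called at an adjusted p of 0.0485 with a filter of 1 FPKM (-0.38), 0.0246 with the sets of replicates as a block (-0.38), 0.0252 with limma-voom (-0.47) and 0.0141 with limma-voom and the replicate block (-0.47), so the number of members called lower was 1 under these 4 alternatives; limma-voom called 252 genes and the main test 135. At an unadjusted p, 2 members (Fgfr1 and Fgfr2) were lower with the replicate block, with the set block, with limma-voom and the block, and without cKO replicate 1 (range 1 to 2 over single libraries left out), where 1446, 1434, 1637 and 1137 of all genes were lower, against 1140 in the main test. The cause was not tested.

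Of the other pathway genes, 2 (Plau and Spry2) were called lower with TPM scaling, with or without milk protein genes, with the set block and with limma-voom, and 4 lower (also Plaur and Dusp6) and 1 higher (Gab1) with limma-voom and the replicate block, where these settings called 132, 131, 442, 252 and 680 of all genes. With 1 library left out the number called lower was 0 to 1 (Spry2, without cKO replicate 3) and the number higher at an unadjusted p was 5 to 7 (5 without control replicate 2 or cKO replicate 4). TPM scaling gave 5 higher at an unadjusted p and moved the median of all genes to -0.05, with 789 genes higher and 1657 lower, against 1340 and 1140.

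The other members had differences near 0 that changed sign. Over single libraries left out, the difference ranged from -0.0518 to 0.0439 for Fgf1, -0.109 to 0.0138 for Fgf2, -0.188 to 0.0124 for Fgf7, -0.0476 to 0.00354 for Fgf10, -0.119 to 0.00849 for Hgf and -0.0758 to 0.0630 for Met. Replicates 1 and 2 alone gave 0.0698 for Fgf1, 0.0754 for Fgf2 and 0.191 for Fgf7, and replicates 3 and 4 alone gave 0.0601 for Met.

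Same-numbered mice correlated at 0.0797 to 0.137 over genes, so the numbers were not taken as pairs. With the replicate block the adjusted p of Fgfr2 was 0.0644, and 0 members were called; that block called 50 genes in all. Leaving out 1 library left 0 to 78 calls among all genes (0 without control replicate 4). Depth was lowest for Fgf10 (4 to 14 reads) and Fgf7 (16 to 55 reads), and the size of difference detectable at these reads was not tested.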
